A study of Homo sapiens with 4 samples.

Results

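Mitochondrial DNA encodes 37 genes in the annotation used here (GENCODE 29, GRCh38, chromosome M), and all 37 were in the count table of 58735 genes. They were chosen by their place on chromosome M and comprise 13 protein genes, 22 tRNAs and 2 rRNAs, with 28 genes on the plus strand and 9 on the minus strand. The samples were 4 RNA-seq libraries of the A549 line, established from a human lung adenocarcinoma. In 2 of them the cells carried a CRISPR guide against UHRF1 (UHRF1 KO) and in the other two a non-targeting guide (control). UHRF1 brings the methyltransferase DNMT1 to newly copied DNA, where methylation marks are maintained. All 4 cultures received their guide by lentivirus (lentiCRISPRv2-hygro) and were selected with hygromycin, and the sources used here do not give whether the cells were pools or clones. RNA was extracted with Trizol, and a SMARTER mRNA-Seq kit was used for the libraries.

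Both strands of the mitochondrial circle are copied by the polymerase POLRMT, with the factors TFAM and TFB2M, into long RNAs that carry many genes in a row. The tRNAs lie between the other genes, and their excision by RNase P and ELAC2 frees the mRNAs and rRNAs. Most human mitochondrial mRNAs receive a poly(A) tail, with MT-ND6 as the known exception, and the LRPPRC-SLIRP complex protects them. The 13 proteins are core subunits of complexes I, III, IV and V of oxidative phosphorylation, whose other subunits are encoded in the nucleus.

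Library totals ran from 20020366 to 23977168 counts in UHRF1 KO and from 18604598 to 19222886 counts in control. Nothing in the labels says that a group's 2 libraries stem from different cultures, so p-values reflect only how these libraries vary, and that may be technical. UHRF1 (chromosome 19, 4903080 to 4962154) was at 39.6 ± 0.79 CPM in UHRF1 KO and 98.1 ± 0.90 CPM in control (SD, n = 2 each). Its log2FC was -1.31 (SE 0.055, edgeR adjusted p = 3.94e-20), which need not follow the protein. CPM are TMM-scaled counts relative to the library's size, and log2FC is the log2 fold change of UHRF1 KO over control. A gene is called when its edgeR quasi-likelihood p, adjusted over the 17030 genes tested, is under 0.05. Over all genes tested, 32.0% were called higher and 30.1% lower, and the median log2FC was 0.02. That is 5445 genes higher and 5118 lower, against 6554 higher and 3776 lower with library totals as the only scaling, and 3508 higher and 8280 lower once trends in length and GC content were removed and the libraries recentred. Of 5 A549 markers KRT8, KRT18, AKR1B10 and ALDH1A1 were abundant, and the list summed to 5992 to 6020 CPM in UHRF1 KO and 14789 to 15037 CPM in control. EPCAM was at 9.97 ± 1.09 CPM in UHRF1 KO and 2.21 ± 0.83 CPM in control. Of 7 markers of other cells 4 could be tested and 3 rose (PECAM1, COL1A1 and COL1A2). Their summed level was 49.6 and 52.6 CPM in UHRF1 KO and 6.66 and 7.32 CPM in control, with CD3E at 0 counts in all 4 libraries and PTPRC at 10 and 20 counts in UHRF1 KO and 0 in both controls. Their part in the results was not tested.

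Mitochondrially encoded RNA took a smaller part of the UHRF1 KO libraries, and the rRNAs made up most of that difference. The 37 genes held 7.29% and 7.26% of all counts in UHRF1 KO, against 8.33% and 8.02% in control. The means were 7.28% and 8.18%, and the groups did not overlap. Protein genes held 5.88% and 5.82% of all counts in UHRF1 KO and 6.19% and 5.96% in control. The 2 rRNAs held 1.37% and 1.40% in UHRF1 KO and 2.10% and 2.02% in control. The tRNAs held 0.0362% and 0.0353% in UHRF1 KO and 0.0429% and 0.0449% in control. The Wilson 95% intervals of these shares, which cover counting error only, did not overlap between any UHRF1 KO library and any control. An exact two-sided permutation test of 2 libraries against 2 cannot go below p = 0.333, which is the value each of these shares gave. RNA was taken from whole cultures, so fewer mitochondrial genomes, less RNA from each and a different mix of cells cannot be told apart.

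Of the 37 genes 31 passed the filter on low counts, and the other six, all tRNAs, had at most 18 counts in any library. Among the 31, 24 were called lower and 2 higher, where 30.1% of all genes were called lower and 32.0% higher. Both UHRF1 KO libraries lay below both controls for 26 of the 31, a pattern that 38.4% of all tested genes showed. At least 2-fold falls were found for 12 of the 31, against 2.54% of all genes. Of these 12, 10 were tRNAs and 2 were protein genes. Once trends in length and GC content were removed, MT-TL1, MT-TM, MT-TG and MT-TS2 were less than 2-fold lower, at -0.46, -0.52, -0.80 and -0.77. The median log2FC was -0.13 for the protein genes, -0.76 for the rRNAs and -1.17 for the 16 tested tRNAs, which was -0.64 once trends in length and GC content were removed. The number called higher was 1 without UHRF1 KO replicate 1, without UHRF1 KO replicate 2 or without control replicate 2. The protein median was -0.22 without UHRF1 KO replicate 1.

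**Figure D1:**
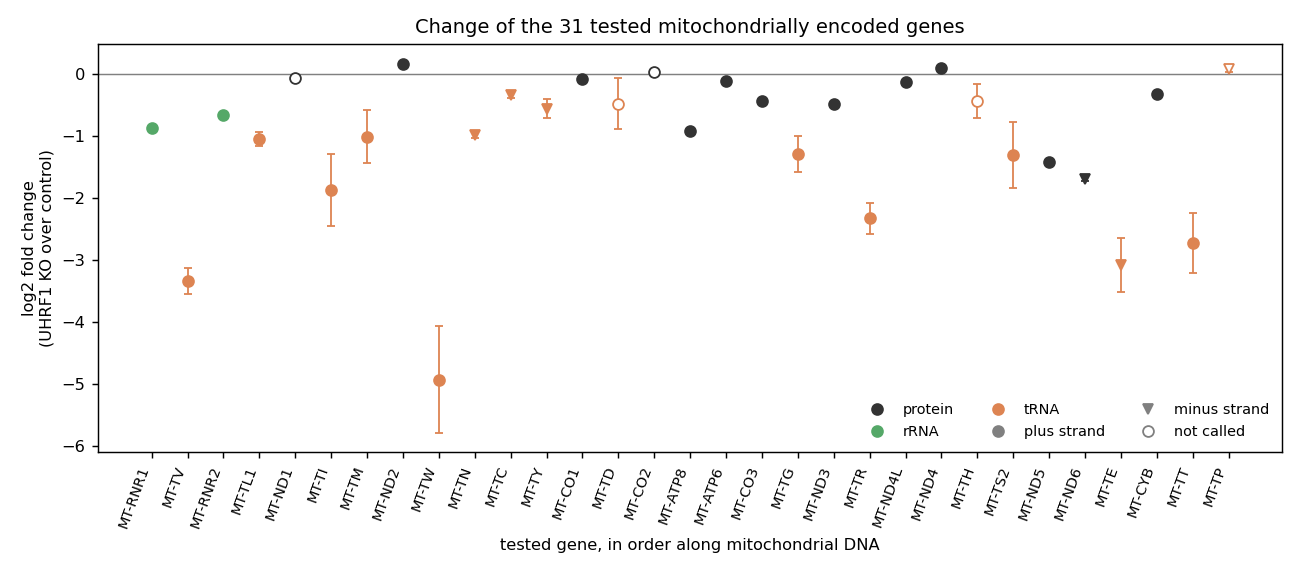
Log2FC (UHRF1 KO over control, with its approximate SE) of the 31 tested mitochondrially encoded genes in their order along the DNA. Circles are plus-strand and triangles minus-strand genes, and open symbols did not pass the test. Most tRNAs lie below their neighbours, and MT-ND5 and MT-ND6 are the lowest of the protein genes, at -1.43 and -1.70.

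MT-ND5 and MT-ND6, both subunits of complex I, fell furthest of the protein genes. MT-ND5 (plus strand, 12337 to 14148) had 24277 and 30550 counts in UHRF1 KO and 57542 and 60050 in control. Its level was 1169 and 1227 CPM in UHRF1 KO and 3222 and 3232 CPM in control. The 2 UHRF1 KO libraries lay close together and far below both controls. The log2FC was -1.43 (SE 0.032, edgeR adjusted p = 4.58e-28), a 2.69-fold fall. MT-ND6 (14149 to 14673), the one protein gene on the minus strand, had 4236 and 5467 counts in UHRF1 KO and 12137 and 12886 in control. That is 204 and 219.6 CPM in UHRF1 KO and 679.5 and 693 CPM in control, again with no overlap. Its log2FC was -1.70 (SE 0.037, edgeR adjusted p = 4.24e-28), a 3.24-fold fall. Both calls held under all 15 alternative settings, with values from -1.71 to -1.32 for MT-ND5 and from -1.94 to -1.59 for MT-ND6.

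The 2 genes meet tail to tail with 0 bases between them. The last 27 bases of each coding region are shown for that junction, each on its own strand 5′ to 3′, with the stop codon in capitals (GENCODE 29, GRCh38, chrM:14122-14148 plus and chrM:14149-14175 minus).
MT-ND5: atcctaaccctactcctaatcacaTAA
MT-ND6: gtaattgagattgctcgggggaatAGG
The human MT-ND5 mRNA is known to continue past its stop codon through the region antisense to MT-ND6 and the tRNA gene MT-TE. The sources used here do not give whether counting used strand, so reads of MT-ND6 and of the MT-ND5 tail cannot be told apart. MT-TE, which adjoins MT-ND6, had 6 and 5 counts in UHRF1 KO and 39 and 37 in control, a log2FC of -3.08 (SE 0.44, edgeR adjusted p = 2.75e-07). All 3 genes were thus lower in both UHRF1 KO libraries. The ratio of MT-ND6 to MT-ND5 counts was 0.174 and 0.179 in UHRF1 KO and 0.211 and 0.215 in control.

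MT-ND4, the complex I gene upstream of MT-ND5 with only tRNAs between, did not share this fall. It was at 6878 and 6850 CPM in UHRF1 KO and 6570 and 6330 CPM in control, a log2FC of 0.09 (SE 0.029, edgeR adjusted p = 0.00874), which was -0.21 once trends in length and GC content were removed and the libraries recentred. It was no longer called without UHRF1 KO replicate 1 (adjusted p = 0.101), without UHRF1 KO replicate 2 (0.0777) and without control replicate 2 (0.108), and the adjusted p ranged from 1.98e-11 to 0.136 over all 15 settings. MT-ND5 had 0.170 and 0.179 counts per count of MT-ND4 in UHRF1 KO and 0.490 and 0.510 in control. Both UHRF1 KO ratios were thus far under both control ratios, whatever the scaling of the libraries.

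The other complex I genes moved less than MT-ND5 and MT-ND6. MT-ND2 rose slightly, at 3709 and 3633 CPM in UHRF1 KO and 3415 and 3192 CPM in control, a log2FC of 0.15 (edgeR adjusted p = 1.07e-04) that turned to -0.14 with libraries recentred. MT-ND1 was at 3414 and 3340 CPM in UHRF1 KO and 3615 and 3442 CPM in control, and its log2FC of -0.06 did not pass the test. It was 0.04 with library totals as the only scaling. MT-ND1 was called lower in 5 of the 15 alternative settings, with values down to -0.45, among them without control replicate 2 (-0.12). MT-ND3 fell, with 466 and 453 CPM in UHRF1 KO and 671 and 613 CPM in control (log2FC -0.48, edgeR adjusted p = 8.58e-13). MT-ND4L was at 1924 and 1714 CPM in UHRF1 KO and 2007 and 1975 CPM in control, a log2FC of -0.13 (edgeR adjusted p = 0.00757) that was 0.01 once trends in length and GC content were removed. That call was also lost without UHRF1 KO replicate 2, control replicate 1 or control replicate 2, at adjusted p of 0.352, 0.506 and 0.463. Of the 7 complex I genes 4 fell, 2 rose and 1 did not pass.

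**Figure D2:**
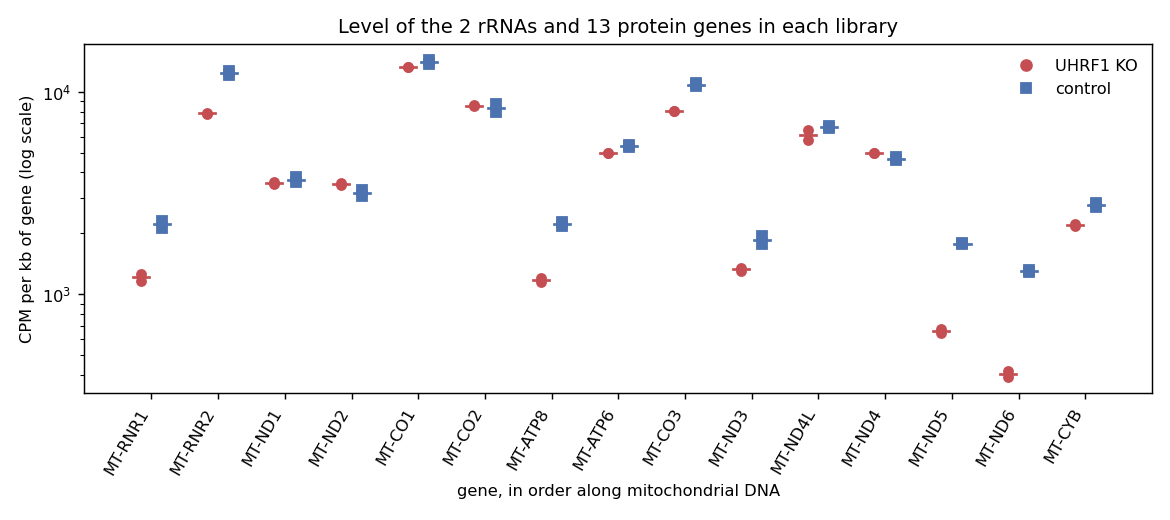
Level of the 2 rRNAs and 13 protein genes in CPM per kb of gene (log axis), with 1 point per library and a bar at each mean (n = 2 per group). MT-CO1 is highest per length in both groups, and MT-ND5 and MT-ND6 show the widest gaps between groups.

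Complex IV, which passes electrons to oxygen, has 3 mitochondrial subunits. MT-CO1 had the highest level per length of all 37 genes, at 13283 CPM per kb in UHRF1 KO and 14067 in control. In CPM it was at 20587 and 20378 in UHRF1 KO and 22210 and 21174 in control, a log2FC of -0.08 (edgeR adjusted p = 0.0148) that was 0.03 with library totals as the only scaling. The call was lost with upper-quartile scaling (edgeR adjusted p = 0.0911), a minimum of 1 CPM in 2 libraries (0.0716) and library totals only (0.384). It was also lost without UHRF1 KO replicate 2. Over all 15 settings the adjusted p of MT-CO1 ranged from 8.78e-24 to 0.384. MT-CO2 was at 5815 and 5863 CPM in UHRF1 KO and 5944 and 5449 CPM in control, so the groups overlapped (log2FC 0.04, edgeR adjusted p = 0.358). It was called higher without control replicate 1 (log2FC 0.08, adjusted p = 0.00131) and was -0.05 without control replicate 2. MT-CO3 fell and the groups did not overlap, at 6317 and 6286 CPM in UHRF1 KO and 8709 and 8349 CPM in control (log2FC -0.44, SE 0.030, edgeR adjusted p = 1.53e-14). The 3 subunits of 1 enzyme therefore moved by different amounts, and the MT-CO3 call held under all 15 alternative settings.

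The 2 complex V genes, subunits of the ATP synthase, also parted. MT-ATP8 had 5204 and 5947 counts in UHRF1 KO and 8072 and 8752 in control, or 250.5 and 239 CPM in UHRF1 KO and 452 and 471 CPM in control. It fell 1.89-fold, with a log2FC of -0.92 (SE 0.037, edgeR adjusted p = 1.30e-20). MT-ATP6 was at 3398 and 3399 CPM in UHRF1 KO and 3706 and 3639 CPM in control, a log2FC of -0.11 (edgeR adjusted p = 0.00136) that was -0.0040 with library totals as the only scaling (adjusted p = 0.902, in a range from 9.45e-23). The ratio of MT-ATP8 to MT-ATP6 counts was 0.0737 and 0.0703 in UHRF1 KO and 0.122 and 0.129 in control. Both genes are carried on 1 mRNA and share 46 bases. Those bases are shown because reads within them belong to both genes, with the start codon of MT-ATP6 and the stop codon of MT-ATP8 in capitals (GENCODE 29, GRCh38, chrM:8527-8572, plus strand).
MT-ATP8/MT-ATP6: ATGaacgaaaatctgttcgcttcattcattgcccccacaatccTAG
The sources used here do not give how such reads were counted, so the split between the 2 genes is uncertain, and the same holds for MT-ND4L and MT-ND4, which share 7 bases.

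MT-CYB, the mitochondrial subunit of complex III, was at 2550 and 2485 CPM in UHRF1 KO and 3232 and 3066 CPM in control. It fell by 0.32 on the log2 scale (SE 0.031, edgeR adjusted p = 9.23e-11), and both UHRF1 KO libraries lay below both controls.

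Both rRNAs fell. MT-RNR2, the large-subunit rRNA, had 251740 and 306016 counts in UHRF1 KO and 352066 and 349711 in control, or 12119 and 12290 CPM in UHRF1 KO and 19712 and 18819 CPM in control. The groups stood well apart, and the log2FC was -0.66 (SE 0.030, edgeR adjusted p = 2.44e-19). MT-RNR1, the small-subunit rRNA, was at 1111 and 1208 CPM in UHRF1 KO and 2199 and 2041 CPM in control. Its log2FC was -0.87 (SE 0.038, edgeR adjusted p = 3.32e-16). Set against MT-CO1, MT-RNR2 had 0.589 and 0.603 counts per count in UHRF1 KO and 0.888 and 0.889 in control. Within mitochondrial counts the rRNAs held 19.1 ± 0.33% in UHRF1 KO and 25.2 ± 0.070% in control, while the protein genes held 80.4 ± 0.33% in UHRF1 KO and 74.3 ± 0.037% in control (SD, n = 2 each). Both rRNA calls held under all 15 alternative settings.

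**Figure D3:**
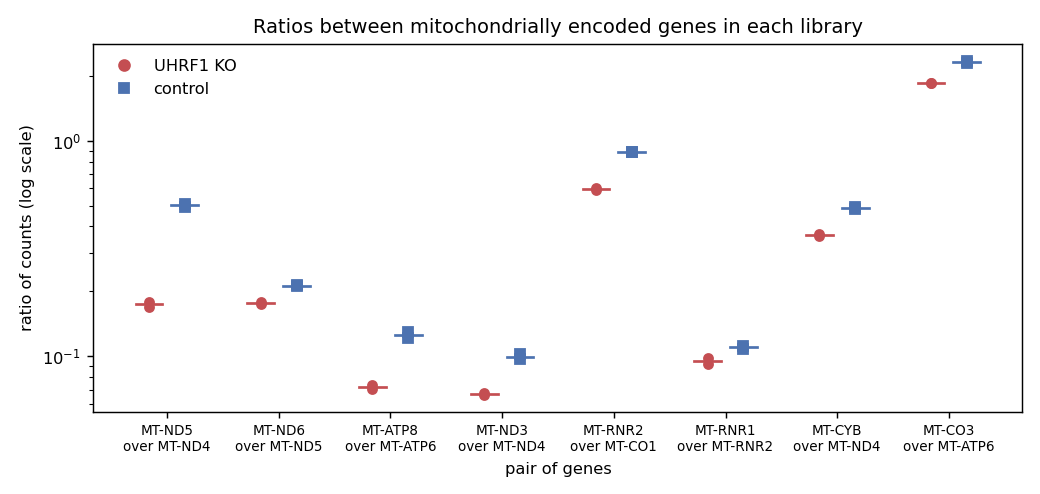
Ratios of counts between pairs of mitochondrially encoded genes in each library (log axis, 1 point per library, bar at the mean of 2). The numerator of each pair is the gene with the lower log2FC, so the direction shared by the 8 pairs follows from that order. The UHRF1 KO points lie below the control points in each pair. The widest gap among these 8 is that of MT-ND5 over MT-ND4, at 0.170 and 0.179 in UHRF1 KO and 0.490 and 0.510 in control.

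The tRNAs carried few counts. Of 16 tested, 13 were called lower and 3 did not pass (MT-TD, MT-TH and MT-TP). An mRNA library need not capture mature tRNAs, and whether these counts come from tRNAs or from uncut precursors cannot be told apart in a table of counts. The tRNAs on which the results turn are shown as encoded, 5′ to 3′ on their own strand, with the anticodon in capitals (GENCODE 29, GRCh38): MT-TV (chrM:1602-1670, plus), MT-TR (chrM:10405-10469, plus), MT-TE (chrM:14674-14742, minus), MT-TN (chrM:5657-5729, minus), MT-TC (chrM:5761-5826, minus) and MT-TP (chrM:15956-16023, minus).
MT-TV: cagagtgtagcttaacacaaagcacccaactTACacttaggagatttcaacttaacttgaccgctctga
MT-TR: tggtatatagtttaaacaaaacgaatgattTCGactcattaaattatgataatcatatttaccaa
MT-TE: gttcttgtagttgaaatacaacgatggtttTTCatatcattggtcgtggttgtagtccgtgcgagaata
MT-TN: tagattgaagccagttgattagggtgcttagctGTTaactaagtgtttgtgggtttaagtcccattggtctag
MT-TC: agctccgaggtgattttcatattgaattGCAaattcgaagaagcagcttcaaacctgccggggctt
MT-TP: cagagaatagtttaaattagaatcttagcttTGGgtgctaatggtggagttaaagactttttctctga
The first 3 fell most among tRNAs with over 30 counts in each control, and the last 3 had the most counts.

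MT-TV, the valine tRNA between the 2 rRNA genes, had 17 and 29 counts in UHRF1 KO and 191 and 182 in control. It was at 0.99 ± 0.25 CPM in UHRF1 KO and 10.2 ± 0.64 CPM in control (SD, n = 2 each). The log2FC was -3.34 (SE 0.21, edgeR adjusted p = 2.56e-15), a 10.1-fold fall. Its neighbours MT-RNR1 and MT-RNR2, which adjoin it directly, were at -0.87 and -0.66. The count ratio of MT-TV to MT-RNR1, which is not among the plotted ratios, was 0.176 times as high in UHRF1 KO as in control, a wider gap than in any plotted pair. MT-TR, the arginine tRNA between MT-ND3 and MT-ND4L, had 22 and 26 counts in UHRF1 KO and 92 and 102 in control (log2FC -2.33, SE 0.25, edgeR adjusted p = 7.80e-10). The genes on its sides were at -0.48 and -0.13. MT-TL1, a leucine tRNA after MT-RNR2, had 182 and 235 counts in UHRF1 KO and 352 and 334 in control, a log2FC of -1.05 (SE 0.11). MT-TG, the glycine tRNA, had 27 and 25 counts in UHRF1 KO and 52 and 50 in control, a log2FC of -1.29 (SE 0.29). Once trends in length and GC content were removed, MT-TV, MT-TR, MT-TL1 and MT-TG were at -2.77, -1.91, -0.46 and -0.80. These 4 tRNAs were lower in both UHRF1 KO libraries and held their calls under all 15 alternative settings.

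Of the minus-strand tRNAs 3 had over 1000 counts in every library. MT-TN, the asparagine tRNA, was at 61.9 and 61.4 CPM in UHRF1 KO and 115 and 129 CPM in control, a log2FC of -0.99 (SE 0.053, edgeR adjusted p = 3.49e-17). MT-TC, the cysteine tRNA next to it, was at 87.7 and 85.8 CPM in UHRF1 KO and 107 and 113 CPM in control, a log2FC of -0.34 (SE 0.048) that turned to 0.17 once trends in length and GC content were removed. MT-TP, the proline tRNA, was at 176 and 169.6 CPM in UHRF1 KO and 166 and 162 CPM in control, and its log2FC of 0.08 did not pass the test (edgeR adjusted p = 0.116). It was called higher in 5 of the 15 alternative settings, with values up to 0.68. MT-TN thus fell about as far as MT-TL1, and MT-TP lay slightly above control in both UHRF1 KO libraries. The log2FC of MT-TN was -0.41 once trends in length and GC content were removed. MT-TY, the tyrosine tRNA, had 110 and 159 counts in UHRF1 KO and 131 and 185 in control. Its log2FC of -0.56 was 0.02 once trends in length and GC content were removed, and it was not called without control replicate 2 (edgeR adjusted p = 0.124, range 3.19e-05 to 0.908).

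**Figure D4:**
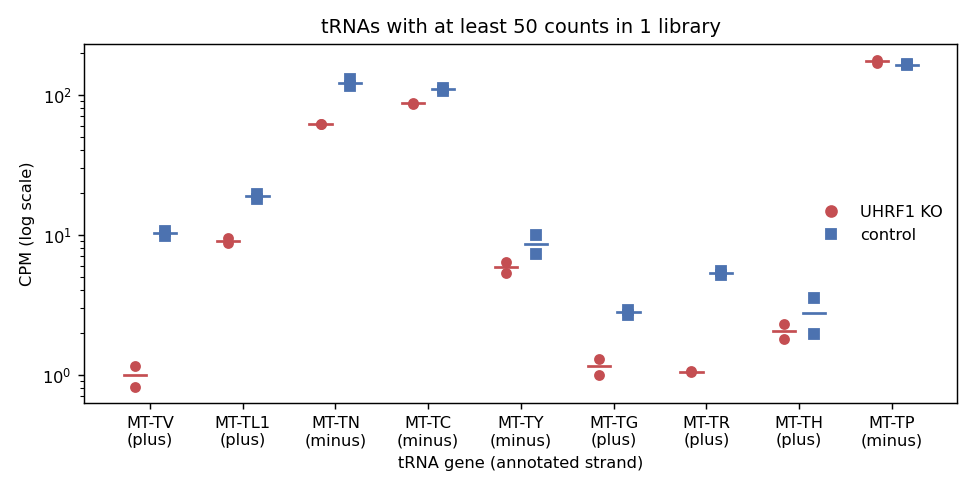
Level in CPM (log axis) of the 9 tRNAs with at least 50 counts in 1 library, with 1 point per library and a bar at each mean of 2. MT-TV and MT-TR show the widest gaps between groups, while the points of MT-TH overlap.

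The remaining tRNAs had fewer than 70 counts in every library. MT-TT, the threonine tRNA, had 2 and 9 counts in UHRF1 KO and 29 and 30 in control (log2FC -2.73, edgeR adjusted p = 1.05e-05), and the value was -3.99 without UHRF1 KO replicate 2. MT-TW, the tryptophan tRNA, had 1 and 0 counts in UHRF1 KO and 13 and 18 in control. It was called lower (log2FC -4.93, edgeR adjusted p = 9.03e-06). With counts and scaled library sizes each summed within a group, its ratio of UHRF1 KO over control was 0.0257. The exact 95% counting interval ran from 0.000632 to 0.154. MT-TA, the alanine tRNA, was not tested by the filter. It had 0 counts in both UHRF1 KO libraries and 11 and 9 in control, at least 8.36-fold lower against a floor of 3 counts over the 2 libraries. MT-TH, the histidine tRNA, had 48 and 45 counts in UHRF1 KO and 35 and 66 in control, and among the 15 alternative settings was called lower only without control replicate 1 (log2FC -0.81, adjusted p = 0.0121). Its value was 0.04 without control replicate 2 and 0.18 once trends in length and GC content were removed.

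MT-TI (6 and 3 counts in UHRF1 KO, 13 and 14 in control), MT-TM (17 and 10, against 25 and 19 in control) and MT-TS2 (4 and 10, against 11 and 17 in control) were called lower. Leaving out single libraries ended these calls. The adjusted p of MT-TI was 0.161 without UHRF1 KO replicate 2, 0.0587 without control replicate 1 and 0.0758 without control replicate 2, and that of MT-TM was 0.403 without UHRF1 KO replicate 2 and 0.256 without control replicate 1. The value of MT-TI was -2.57 without UHRF1 KO replicate 1, against -1.87 with all libraries. For MT-TS2 the adjusted p lay between 0.0525 and 0.324 whichever library was left out, and the value was -1.96 without UHRF1 KO replicate 2, against -1.31 with all libraries. MT-TD, the aspartate tRNA, had 18 and 16 counts in UHRF1 KO and 20 and 18 in control and did not pass. Of the untested tRNAs, MT-TF, MT-TQ and MT-TK had 2, 9 and 6 counts over both UHRF1 KO libraries and 9, 26 and 18 over both controls. Counting intervals of the ratio, which leave out spread between libraries, lay below 1 for these 3. Those of MT-TS1 (12 counts in each group) and MT-TL2 (11 in UHRF1 KO and 10 in control) included 1. With no filter MT-TQ was called lower (edgeR adjusted p = 0.0188), while MT-TF and MT-TK were not (0.178 and 0.0613).

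Genes annotated on both strands were lower. The sources used here do not give whether counting used strand, so the annotated strand need not be that of the RNA. Of 25 tested plus-strand genes 19 fell and 2 rose, with a median log2FC of -0.66, and of 6 tested minus-strand genes 5 fell, with a median of -0.77. Among tRNAs the median was -1.31 for 11 plus-strand genes and -0.56 for 5 minus-strand genes. Minus-strand genes held 0.763% and 0.777% of mitochondrial counts in UHRF1 KO and 1.24% and 1.34% in control. MT-ND6 alone held 0.290% and 0.314% in UHRF1 KO and 0.783% and 0.836% in control. The group means differed by -0.52 percentage points for all minus-strand genes and by -0.51 for MT-ND6, so the other minus-strand genes added little. Within tRNA counts the minus-strand share was higher in UHRF1 KO, at 95.1% in both libraries, than in control, at 89.4% and 89.9%. The minus-strand share thus went down over all genes and up over tRNAs, and an exact permutation test of 2 libraries against 2 cannot pass 0.05. The share within tRNAs rests mostly on MT-TN, MT-TC and MT-TP, the tRNAs with the most counts.

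Nuclear copies of mitochondrial genes were checked because reads can match both. Of 407 such copies 7 passed the filter, and the list summed to 433 and 454 CPM in UHRF1 KO and 570.0 and 550.5 CPM in control. That sum was far under MT-CO1, at 20587 and 20378 CPM in UHRF1 KO and 22210 and 21174 CPM in control. It was above MT-ATP8, at 250.5 and 239 CPM in UHRF1 KO and 452 and 471 CPM in control, and above every tRNA. MTND2P28, a copy of MT-ND2, had a log2FC of -0.35 (edgeR adjusted p = 3.58e-09), while MT-ND2 was at 0.15. MTATP6P1, a copy of MT-ATP6, was at -0.39 (edgeR adjusted p = 5.43e-07), and MTND4P12 rose to 6.25 ± 0.89 CPM in UHRF1 KO, against 2.70 ± 0.62 CPM in control. The treatment of reads with several matches was not given. Among 13 listed nuclear RNAs without a poly(A) tail 2 could be tested. RN7SL2, an RNA of the signal recognition particle, had 174 and 596 counts in UHRF1 KO and 3704 and 3176 in control (edgeR adjusted p = 0.0266), and SNORD3A did not pass. RN7SL2 was not called without control replicate 1, without control replicate 2, with no filter or with the replicate number as a block. RN7SK, RMRP and RPPH1 had 0 counts in all 4 libraries. Whether capture in the libraries had a part in the falls of rRNAs, tRNAs and MT-ND6 was not tested.

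Nuclear genes that serve mitochondrial RNA were mostly slightly lower. Of 10 transcription genes 7 fell, where 30.1% of all genes did, and 4 once trends in length and GC content were removed. TFAM, which packages mitochondrial DNA and starts its transcription, was at 78.4 ± 1.48 CPM in UHRF1 KO and 100.1 ± 3.13 CPM in control (log2FC -0.35, edgeR adjusted p = 2.03e-07). TFB2M, TEFM, MTERF1, MTERF3 and MRPL12 fell by 0.27, 0.30, 0.43, 0.41 and 0.46 on the log2 scale. POLRMT was at 77.5 ± 1.61 CPM in UHRF1 KO and 73.3 ± 2.68 CPM in control and did not pass (log2FC 0.08, edgeR adjusted p = 0.182). Of 23 genes of RNA cleavage, stability and decay 18 fell and 2 rose, with a median of -0.27, but 10 fell, with a median of -0.13, once trends in length and GC content were removed. LRPPRC, which protects the mRNAs, was at 347 ± 2.28 CPM in UHRF1 KO and 491 ± 19.4 CPM in control (log2FC -0.50, edgeR adjusted p = 4.73e-14). Its partner SLIRP fell by 0.68 on the log2 scale. The tRNA-cutting genes TRMT10C, of RNase P, and ELAC2 fell by 0.56 and 0.33, and FASTKD2 by 0.55. PNPT1 and SUPV3L1, which together degrade mitochondrial RNA, fell by 0.49 and 0.17.

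Genes that copy mitochondrial DNA, modify its RNA or charge its tRNAs were also more often lower than higher. Among all genes tested, 30.1% were called lower and 32.0% higher. The median log2FC was -0.22 for the replication and upkeep genes and -0.17 for the modification genes. Of 16 genes of mitochondrial DNA replication and upkeep 9 fell and 2 rose, while 1 was called higher without UHRF1 KO replicate 2 or without control replicate 2, and 4 with library totals as the only scaling. The helicase gene TWNK fell by 0.73 and the single-strand binding protein SSBP1 by 0.58, and RRM2B, a ribonucleotide reductase subunit, rose by 0.46 on the log2 scale. Of 24 genes of tRNA and rRNA modification 12 fell and 2 rose. Neither of these 2 rises was called without UHRF1 KO replicate 2, and 1 gene was called higher without control replicate 1 or without control replicate 2. QTRT2, MRM2 and METTL15 were at -0.65, -0.44 and -0.54. Of 22 aminoacyl-tRNA synthetase genes 17 fell and 1 rose, with KARS and GARS at -0.41 and -0.39. Of 83 genes of the mitochondrial ribosome 71 fell and 12 did not pass, with a median of -0.46. MRPS34 fell furthest of these, to 50.8 ± 0.046 CPM in UHRF1 KO, against 108 ± 6.48 CPM in control, and MRPL24 and MRPL51 fell by 0.83 and 0.74. Among biogenesis regulators, PPARGC1A, a coactivator of mitochondrial genes, fell to 3.38 ± 0.53 CPM in UHRF1 KO, against 14.3 ± 1.03 CPM in control (log2FC -2.09, SE 0.15, edgeR adjusted p = 5.24e-14). NRF1 fell by 0.65, MYC rose by 0.48 on the log2 scale, and 7 of the 9 tested regulators fell, or 4 with library totals as the only scaling.

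The nuclear subunits of the respiratory complexes were mostly lower, where 30.1% of all genes were called lower. Of 37 nuclear genes listed for complex I 29 fell and 1 rose (NDUFA11, named after its value was seen). Among the 37 is NDUFA4 (log2FC -0.40, called lower), which is a subunit of complex IV. The list had a median of -0.40, where the mitochondrial subunits of complex I had a median of -0.13. NDUFS3, NDUFB10 and NDUFS4 were at -0.72, -0.55 and -0.79. The lowest nuclear subunit of complex I was at -0.79, while MT-ND5 and MT-ND6 were at -1.43 and -1.70. In complex III 8 of 9 nuclear subunits fell, with a median of -0.48 and with UQCRFS1, CYC1 and UQCRB at -0.93, -0.79 and -0.69, beside MT-CYB at -0.32. In complex IV 11 of 14 tested fell, with COX4I1, COX7C and COX7B at -0.50, -0.57 and -0.58. COX7B2 and COX6B2, isoforms known from testis and named after their values were seen, rose, COX7B2 to 43 and 42 counts in UHRF1 KO, against 0 in both controls, at least 22.6-fold higher against a floor of 3 counts over both. In complex V 17 of 18 fell, with a median of -0.51 and with ATP5MC3, ATP5F1B and ATP5F1A at -0.65, -0.43 and -0.48. Complex II, which has no mitochondrial subunit, had 4 of 4 lower, with SDHA, SDHB and SDHD at -0.29, -0.35 and -0.36.

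**Figure D5:**
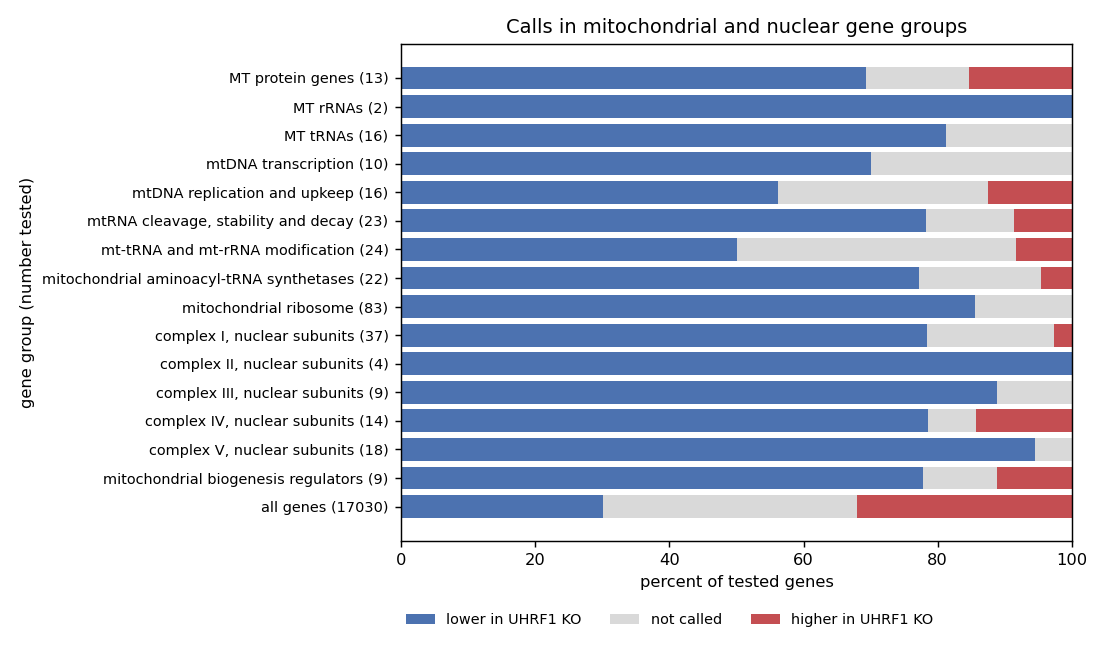
Percent of tested genes called lower, not called and called higher in UHRF1 KO for the mitochondrially encoded classes, the nuclear lists that serve mitochondria, and all genes (number tested in parentheses). Calls lower took 9 of 13 mitochondrial protein genes, 13 of 16 tRNAs and 71 of 83 mitochondrial ribosome genes, against 30.1% of all genes. Of 352 nuclear genes whose mean CPM reached that of MT-ATP8, which are not plotted, 65.9% were called lower.

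A fall was common among abundant nuclear genes as well. Of 352 nuclear genes whose mean CPM over the 4 libraries reached that of MT-ATP8, the lowest of the mitochondrial protein genes by this measure, 65.9% were called lower and 24.7% higher, with a median log2FC of -0.29. The median of the mitochondrial protein genes was nearer 0 than this. Only 2 of the 352, AKR1B10 and ALDH1A1, fell as far as MT-ND5 or MT-ND6. The medians of the nuclear lists above stayed below 0 under all 15 alternative settings, as did that of the mitochondrial protein genes, which ranged from -0.45 to -0.02.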

How the data were processed

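RNA-seq libraries of A549 cells, 2 UHRF1 KO and 2 control, were analysed from the deposited table of whole-number read counts per gene. Per the submitters' processing notes, FastQC 0.10.1 and GRCh38 were used, and the sources used here give no aligner, counter, annotation or use of strand. Gene IDs were matched to GENCODE 29, and all 58735 matched. Sequences come from its transcripts.

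The counts were fitted with edgeR 4.0.16 (TMM scaling, filterByExpr, robust quasi-likelihood test, R 4.3.3) over 17030 genes, with Benjamini-Hochberg adjustment and a threshold of 0.05. The common biological coefficient of variation was 3.16%. The SE of a log2 fold change is its size divided by the root of F. Replicates differed beyond counting noise (chi-square per degree of freedom 1.89 in UHRF1 KO and 2.79 in control). The fit was tested on simulated data with the same spread for every gene and few changed genes, so that test does not vouch for the calls here. Alternatives were 15 per gene, with limma 3.58.1 and DESeq2 1.42.0 among them, and 1, scaling without mitochondrial genes, was chosen after seeing the data.

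Members and lists were chosen with earlier results of these data known. All 37 mitochondrial genes are named, with full values for protein genes, rRNAs and tested tRNAs with at least 50 counts in 1 library, and low-count tRNAs in brief. Also named are UHRF1, up to 3 called members of each list by smallest adjusted p, a fixed set of regulators (TFAM, POLRMT, TFB2M, TEFM, LRPPRC, SLIRP, MTERF1, ELAC2, TRMT10C, PNPT1, SUPV3L1 and PPARGC1A), nuclear copies, and RN7SK, RMRP and RPPH1. A gene that this rule names is not reported here.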

Additional observations from a re-analysis of the deposited data

How the results depend on the processing

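Across 15 alternative settings, 15 of the 26 called genes kept their call in every setting run (MT-RNR1, MT-RNR2, MT-ND3, MT-ND5, MT-ND6, MT-CO3, MT-ATP8, MT-CYB, MT-TV, MT-TR, MT-TE, MT-TN, MT-TL1, MT-TG and MT-TT), and MT-TW did so in the 13 settings that gave it a value. With library totals as the only scaling, which moved the median of all genes to 0.13, 4 mitochondrial genes were called higher and 19 lower, the protein median was -0.0233, and MT-ND1 and MT-CO1 turned to 0.0447 and 0.0251. With no filter 1 was called higher, and with a minimum of 1 CPM the tRNA median was -1.02. Once trends in length and GC content were removed 4 were called higher, the tRNA median was -0.64, and MT-TC, MT-TY, MT-CO2, MT-ND4L and MT-TH turned to 0.17, 0.0229, -0.0098, 0.0130 and 0.18. With libraries also recentred, which moved the median of all genes to -0.24, 1 was called higher, the medians were -0.45 for protein genes and -0.94 for tRNAs, and MT-ND2, MT-CO2 and MT-ND4 turned to -0.14, -0.31 and -0.21. Leaving out 1 library in turn gave 1 to 3 genes called higher, 20 to 26 called lower, protein medians from -0.22 to -0.12, tRNA medians from -1.24 to -1.11 and differences in mitochondrial share from -1.06 to -0.74 percentage points. Without control replicate 2, MT-CO2 and MT-TH turned to -0.0470 and 0.0397, against 0.0804 and -0.81 without control replicate 1. With DESeq2 2 were called higher and 20 lower. The cause of these moves was not tested. The replicate block left 2 mitochondrial genes called higher and 24 lower and changed no call of a mitochondrial gene, while RN7SL2 was no longer called and 11 in place of 12 modification genes were lower. Same-numbered libraries did not deviate together (r = -0.082 over 9723 genes), and the number of each control is uncertain because both carry the same description. For the 15 tRNAs with under 70 counts in every library the counting error relative to the value is largest. With libraries recentred, 14 replication and 22 modification genes were lower.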
